A study of Homo sapiens with 4 samples.

Results

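The SLC25 family of mitochondrial carriers was described in the human glioblastoma cell line LN229 when the transcription factor *SOX2* was knocked down. The members were all genes whose symbol on the array begins with SLC25A, taken from the spots annotated as gene probes. There were 33 such genes among 20481 gene symbols, carried by 46 of 33096 spots. The spots fell into 35 of 27903 features, a feature being the spots that share a Celera gene ID. Each gene was taken in by its symbol and not by its measured value, but the members were chosen with earlier results of these data known.

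Both groups were LN229 cells in which a small interfering RNA (siRNA) had been introduced transiently. The *SOX2* knockdown group received siRNA against *SOX2* and the mock knockdown group a control siRNA without a target, and no other difference between the groups is given. Each group had 2 arrays, and the methods of the study describe them as biological replicates that included the transfection. Total RNA of each culture was hybridised to a 1-colour oligonucleotide array read by chemiluminescence, and the comparison asked which transcripts changed in level when *SOX2* was reduced. As a single line with a transient knockdown was used, other glioma cells were not sampled, and fewer cells expressing a gene cannot be told apart from less RNA of that gene per cell.

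SLC25 proteins are built from a repeated pair of membrane-spanning helices and sit, with few exceptions, in the inner membrane of the mitochondrion. They are encoded in the nucleus, are inserted into the membrane by the TOM and TIM22 import machinery, and exchange or carry solutes that cannot cross this membrane by themselves: ADP and ATP, phosphate, amino acids, carboxylic acids, acylcarnitines, nucleotides, iron and cofactors. In glial and tumour cells they are known for linking glycolysis to respiration through the malate-aspartate shuttle and for exporting citrate for lipid synthesis.

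The 250 bases before the annotated transcription start are shown for 4 members, 3 of them from the malate-aspartate and oxoglutarate exchange described below. The other is the uncoupling-like gene *SLC25A27*, which had the lowest fitted change of the members compared. They are RefSeq sequences of assembly GRCh38.p14, each written 5' to 3' on the strand of its gene. *SLC25A13* lies at chr7:96322099-96322348 on the minus strand, *SLC25A12* at chr2:171894245-171894494 on the minus strand, *SLC25A11* at chr17:4940047-4940296 on the minus strand and *SLC25A27* at chr6:46652725-46652974 on the plus strand, all upstream of the first exon. Capitals mark a match to any of the 3 motifs searched, in either direction.
SLC25A13: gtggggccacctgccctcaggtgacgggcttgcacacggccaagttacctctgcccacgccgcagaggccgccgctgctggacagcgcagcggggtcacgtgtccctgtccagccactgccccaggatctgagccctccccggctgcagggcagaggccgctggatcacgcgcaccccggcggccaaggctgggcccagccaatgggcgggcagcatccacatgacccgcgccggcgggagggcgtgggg
SLC25A12: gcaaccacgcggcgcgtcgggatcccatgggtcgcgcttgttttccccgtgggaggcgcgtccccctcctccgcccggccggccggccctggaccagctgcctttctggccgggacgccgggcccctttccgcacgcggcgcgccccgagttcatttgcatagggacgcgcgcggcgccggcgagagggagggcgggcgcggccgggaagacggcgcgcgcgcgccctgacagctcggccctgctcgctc
SLC25A11: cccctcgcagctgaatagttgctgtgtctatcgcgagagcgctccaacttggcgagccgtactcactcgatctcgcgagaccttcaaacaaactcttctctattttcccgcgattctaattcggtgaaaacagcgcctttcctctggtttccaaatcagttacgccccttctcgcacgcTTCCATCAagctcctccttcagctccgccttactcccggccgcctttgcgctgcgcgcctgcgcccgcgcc
SLC25A27: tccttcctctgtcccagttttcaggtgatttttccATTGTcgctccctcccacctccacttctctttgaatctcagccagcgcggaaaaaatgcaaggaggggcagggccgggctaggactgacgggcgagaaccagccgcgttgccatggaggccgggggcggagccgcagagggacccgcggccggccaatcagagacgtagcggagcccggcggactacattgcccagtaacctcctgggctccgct

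The motifs were the SOX core ATTGT, the amino acid response element TGATGNAA, where N is any base, and the NRF1 element GCGCATGC. No motif contains another. A window was found for 26 of the 33 members. The SOX core was present in 2 of them (7.69%), *SLC25A18* and *SLC25A27*, against 24.6% of all 35097 promoter windows. In *SLC25A27* it began 215 bases before the start. The amino acid response element was present in 1 of 26 (3.85%), *SLC25A11*, where it read TTCCATCA on the gene's strand from 71 bases before the start, against 3.15% of all windows. The NRF1 element was present in 0 of 26, against 2.63% of all windows. The windows of *SLC25A12* and *SLC25A13* were rich in G and C (77.2% and 73.6%) and held none of the 3 motifs. The members had 1 window each, while all windows means every distinct window in the source. The 2 sets were not matched for windows per gene or for G and C content. A match of letters is a description and does not show that a factor binds there.

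On the arrays *SOX2* itself was at 0.454 and 0.682 in mock knockdown and at 0.204 and 0.145 in *SOX2* knockdown, in units of the 75th percentile of each array, which is the scale of every signal given here. Its signal was lower on each knockdown array than on either mock array, with a ratio of means of 0.308 and a log2 change of -1.69 (SE 0.28, limma adjusted p = 0.114). Between 63.5% and 68.9% of gene probes reached a signal-to-noise ratio (S/N) above 3, and the 18378 features that did so on each array of 1 group or the other were compared. *SOX2* had S/N of 5.17 and 13.6 in mock knockdown and of 3.17 and 3.06 in *SOX2* knockdown, the latter close to that limit. Since the treatment field of the labels names the colon line SW620, marker genes were read. In a list of 10 colon epithelium genes 4 passed the S/N filter. They were *CDX2*, *VIL1* and *LGALS4*, none above 0.0642 on any array, and *CDH1*, whose feature averages in a spot of *RPL23A* and was not read. *CDH17*, *KRT20* and *EPCAM* did not pass, while 8 of 9 glioma and mesenchymal genes passed, with *VIM* between 49.8 and 58.1. No batch beyond the 4 arrays is named in the labels.

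Most SLC25A carriers were measurable in LN229 cells, and their fitted changes were small. Of the 33 genes, 28 passed the S/N filter, all of them with S/N over 3 on all 4 arrays. Their log2 changes, *SOX2* knockdown over mock, ran from -0.45 to 0.48 with a median of 0.02, and the median size of change without regard to sign was 0.10. Over all 18378 features the corresponding medians were 0.00 and 0.19. Over the 16908 features with S/N over 3 on all 4 arrays, as for the carriers, they were -0.0006 and 0.18. A positive change was fitted for 15 carriers and a negative one for 13, and with arrays scaled to their median the split was 11 and 17.

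limma with Benjamini-Hochberg adjustment over all features called 0 of 28 carriers at an adjusted p under 0.05, and 1, *SLC25A13*, had an unadjusted p under 0.05. The background share was 0.0% for the former (0 of 18378) and 17.2% for the latter, of which 8.12% were higher and 9.07% lower after knockdown. At an adjusted p under 0.1 the count was 0 of 28 against a background of 0.903%, and the smallest adjusted p of a carrier was 0.274. By the ratio of the group means, 0 of 28 carriers were over 2-fold in either direction (background 2.38%, of which 1.47% higher and 0.909% lower) and 0 were over 1.5-fold (background 9.86%, of which 5.08% higher and 4.78% lower). Among the 16908 features with S/N over 3 on all 4 arrays, as for the carriers, 245 were over 2-fold and 1323 over 1.5-fold. The groups did not overlap for 8 of 28 carriers (28.6%), against 47.2% of all features and 47.5% of those 16908. They were higher after knockdown for *SLC25A10* and *SLC25A13*, with a background of 21.6% in that direction, and lower for *SLC25A1*, *SLC25A5*, *SLC25A6*, *SLC25A11*, *SLC25A12* and *SLC25A16*, with a background of 25.7%.

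The 95% limma intervals give the range of changes that the 4 arrays allow for a single gene. The whole interval lay inside 2-fold for 26 of 28 carriers (92.9%, against 79.5% of all features), the exceptions being *SLC25A25* and *SLC25A27*, and inside 1.5-fold for 17 of 28 (60.7%, against 34.9%). The standard error of the log2 change was between 0.12 and 0.31 with a median of 0.16. The median absolute log2 difference between the 2 mock arrays was 0.26 for the carriers and between the 2 knockdown arrays 0.12. Over all features these were 0.22 and 0.16. For the carriers both were above the median size of change of 0.10, but that compares means of 2 arrays and these compare single arrays.

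**Figure D1:**
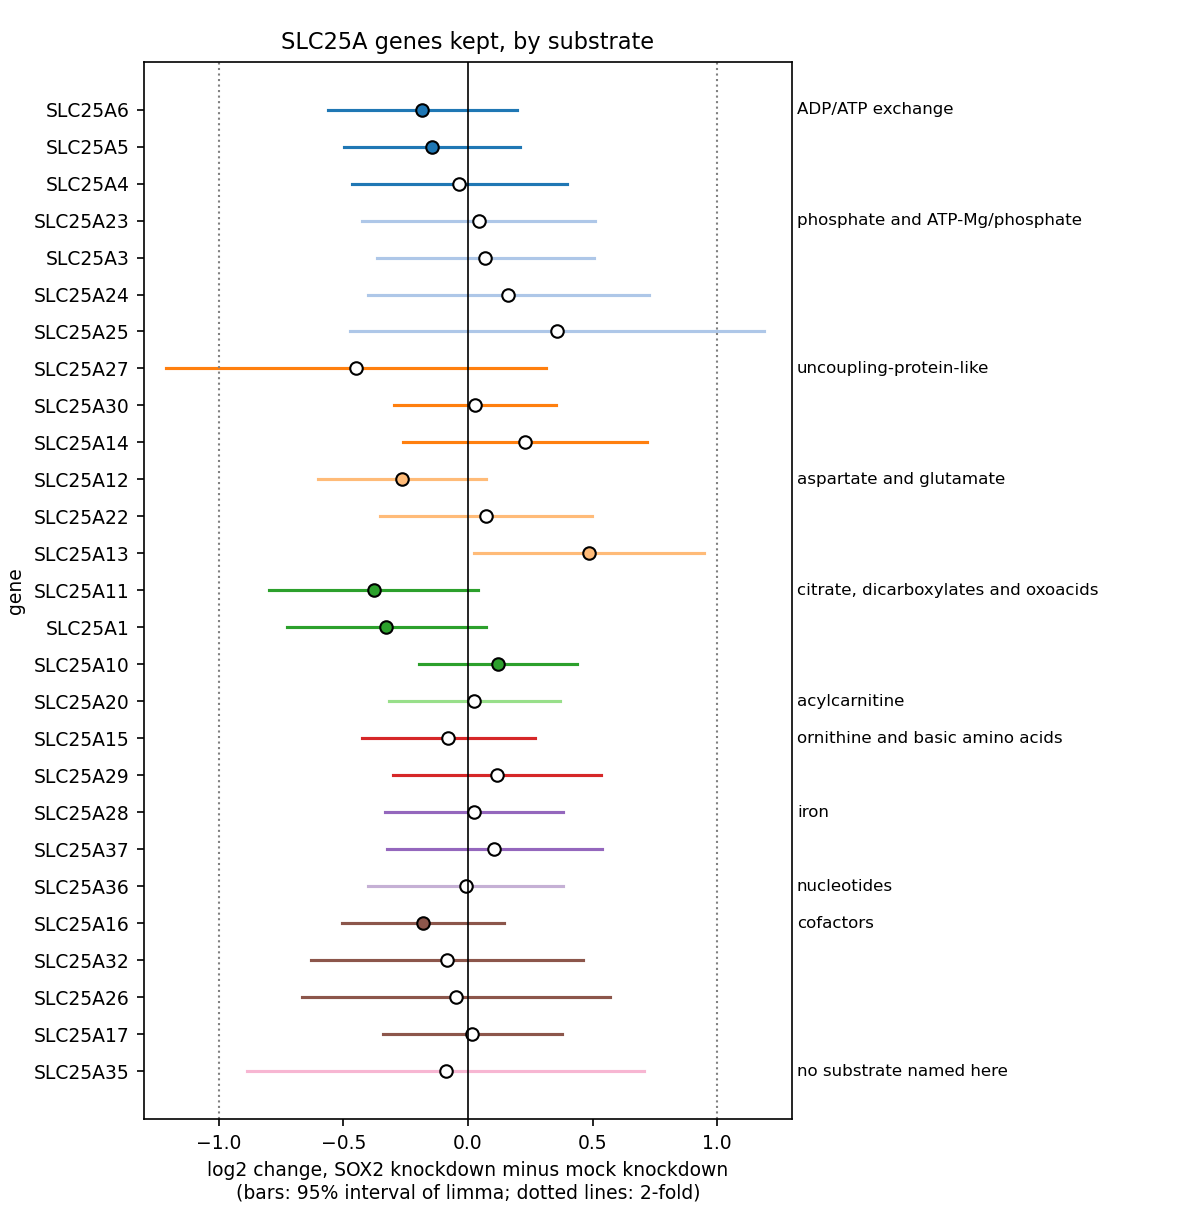
The horizontal axis gives the log2 change of 27 of the 28 kept SLC25A genes, *SOX2* knockdown over mock knockdown, with bars for the 95% limma interval, and the genes are grouped by substrate on the vertical axis and ordered by change within a group. Filled points mark the 8 genes whose groups did not overlap, and the interval of *SLC25A13* alone leaves out 0.

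Among the ADP/ATP carriers, which exchange cytosolic ADP for ATP made in the matrix, *SLC25A5* was at 31.2 and 28.6 in mock knockdown and at 28.1 and 25.9 in *SOX2* knockdown. Both knockdown arrays were below both mock arrays, by a small margin, and the fitted log2 change was -0.14 (SE 0.13, limma adjusted p = 0.69). *SLC25A6*, whose brighter spot is shared with *GOLGA8A*, was at 5.74 and 6.32 in mock knockdown and at 5.65 and 4.98 after knockdown. Its groups did not overlap either, with a log2 change of -0.18 (SE 0.14). The muscle and brain form *SLC25A4* was at 1.52 and 1.90 in mock knockdown and at 1.66 on both knockdown arrays, which lie between the mock values, and its change was -0.03 (SE 0.16). The testis form *SLC25A31* had a signal of 0.0161, 0.0297, 0.0130 and 0.0261 on the 4 arrays with S/N between -0.16 and 0.56, and it was not well above background on any of them.

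The aspartate/glutamate carriers had the highest fitted change of the 28 carriers in one paralogue and a negative one in the other. Both proteins send aspartate out of the matrix in exchange for glutamate and a proton, respond to calcium and form the irreversible step of the malate-aspartate shuttle. *SLC25A13* (citrin) was at 1.68 and 2.16 in mock knockdown and at 2.58 and 2.75 in *SOX2* knockdown. Both knockdown arrays were above both mock arrays. The ratio of means was 1.39 and the log2 change 0.48 (SE 0.17, 95% interval 0.02 to 0.95), which did not pass limma's adjusted threshold (adjusted p = 0.274). *SLC25A12* (aralar) was at 0.631 and 0.581 in mock knockdown and at 0.509 and 0.498 after knockdown, again without overlap and in the opposite direction. Its ratio was 0.831 and its log2 change -0.27 (SE 0.13, limma adjusted p = 0.393).

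On each array the log2 ratio of the *SLC25A13* signal to the *SLC25A12* signal was 1.41 and 1.89 in mock knockdown and 2.34 and 2.47 in *SOX2* knockdown. These ratios compare 2 probes and are of use only between arrays. They were higher on both knockdown arrays, by 0.75 on average, with p = 0.333 in a two-sided exact permutation test over the 4 arrays, the smallest p that the 6 possible regroupings allow. This pair was put together after the values of its members were known. As its members were already apart in opposite directions, the test could only return this p and adds nothing to their values.

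The oxoglutarate carrier *SLC25A11*, which brings malate into the matrix in the same shuttle, was at 0.727 and 0.883 in mock knockdown and at 0.592 and 0.642 in *SOX2* knockdown. Its groups did not overlap. The ratio of 0.767 was the lowest among the carriers whose groups were apart, with a log2 change of -0.38 (SE 0.16, limma adjusted p = 0.333). Of the glutamate carriers, which move glutamate with a proton, *SLC25A22* had a log2 change of 0.07 (SE 0.16), and *SLC25A18* was not well above background on any array, with S/N between -2.48 and -0.74.

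The shuttle enzymes that meet these carriers were read from the same fit. *GOT1*, the cytosolic aspartate aminotransferase, was at 1.25 and 1.31 in mock knockdown and at 2.61 and 2.42 in *SOX2* knockdown. The groups did not overlap, with a ratio of 1.97 and a log2 change of 0.98 (SE 0.13, limma adjusted p = 0.101). The cytosolic malate dehydrogenase *MDH1* had a ratio of 0.824 without overlap, and the mitochondrial *MDH2* one of 0.866 with overlapping groups. The feature of the mitochondrial aminotransferase *GOT2* averages in spots of *TTN* and was not read for the gene.

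**Figure D2:**
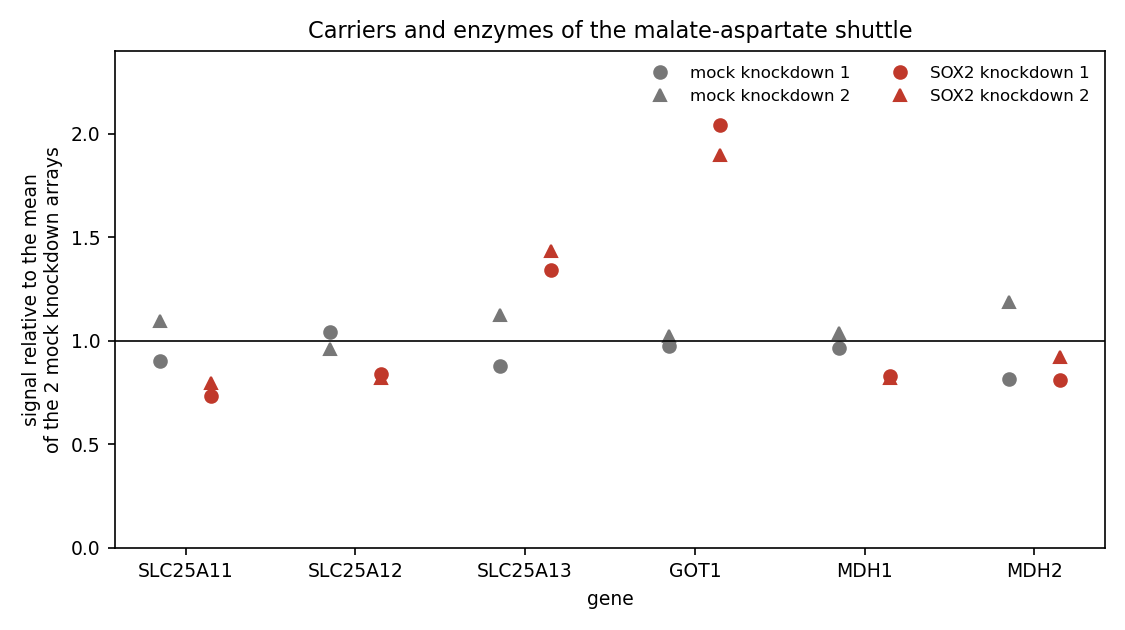
The vertical axis gives the signal of malate-aspartate shuttle genes on each array relative to the mean of the 2 mock knockdown arrays (linear, no unit), with carriers and enzymes on the horizontal axis and 1 point per array. On the knockdown arrays *SLC25A13* was at 1.34 and 1.44 and *GOT1* at 2.04 and 1.90, while *SLC25A12* was at 0.841 and 0.822 and *SLC25A11* at 0.735 and 0.798.

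Among the other carriers of carboxylic acids, the citrate carrier *SLC25A1*, which exports citrate for fatty acid and sterol synthesis, was at 4.58 and 5.50 in mock knockdown and at 4.05 and 3.95 in *SOX2* knockdown. Both knockdown arrays were below both mock arrays, with a ratio of 0.793 and a log2 change of -0.33 (SE 0.15, limma adjusted p = 0.372). *ACLY*, which splits the exported citrate, also had groups apart, with a ratio of 0.881. The dicarboxylate carrier *SLC25A10*, which exchanges malate or succinate for phosphate, was at 0.644 and 0.645 in mock knockdown and at 0.702 and 0.699 after knockdown. The replicates differed by less than the groups, but the ratio was only 1.09 (log2 change 0.12, SE 0.12), its spots disagreed, at ratios of 1.16 and 0.932, and with normexp background correction the log2 change was -0.05. The oxodicarboxylate carrier *SLC25A21* had 2 gene IDs, and neither had S/N over 3 on any array.

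The phosphate carrier *SLC25A3*, which supplies phosphate for ATP synthesis, had a log2 change of 0.07 (SE 0.16). The calcium-regulated ATP-Mg/phosphate carriers, which adjust the adenine nucleotide pool of the matrix, had 3 members on the arrays. *SLC25A25* was at 2.20 and 1.22 in mock knockdown (S/N 8.71 and 4.66) and at 2.08 and 2.11 in *SOX2* knockdown (S/N 12.4 and 10.4). The mock values lay on either side of the knockdown values, and the fitted change of 0.36 (SE 0.31) became 0.78 without mock 1 and -0.07 without mock 2. *SLC25A24* was at 0.584 and 0.813 in mock knockdown and at 0.824 and 0.720 after knockdown, with a change of 0.16 (SE 0.21) and overlapping groups. *SLC25A23* was at 4.26 and 4.39 in mock knockdown and at 3.91 and 5.08 after knockdown, with the knockdown values on either side, and its change was 0.04 (SE 0.17).

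The uncoupling-protein-like carriers resemble the brown-fat uncoupling protein in sequence. *SLC25A27* (UCP4) was at 0.109 and 0.0891 in mock knockdown and at 0.0564 and 0.0923 in *SOX2* knockdown. The value of knockdown 2 lay between the mock values. The log2 change of -0.45 (SE 0.28, limma adjusted p = 0.521) was the lowest of the 28 carriers compared and became -0.10 without *SOX2* knockdown 1. *SLC25A14* (BMCP1) was at 0.665 and 0.806 in mock knockdown and at 0.954 and 0.771 after knockdown, with a change of 0.23 (SE 0.18) and overlapping groups. *SLC25A30* had a change of 0.03 (SE 0.12), a value averaged over 2 spots of which 1 carries the symbol, and its second gene ID was dim. The spot with the symbol was at 1.61 and 1.78 in mock knockdown and at 1.85 and 1.94 after knockdown. Its groups did not overlap, with a ratio of 1.12 and a log2 change of 0.16 (SE 0.13, limma adjusted p = 0.646).

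**Figure D3:**
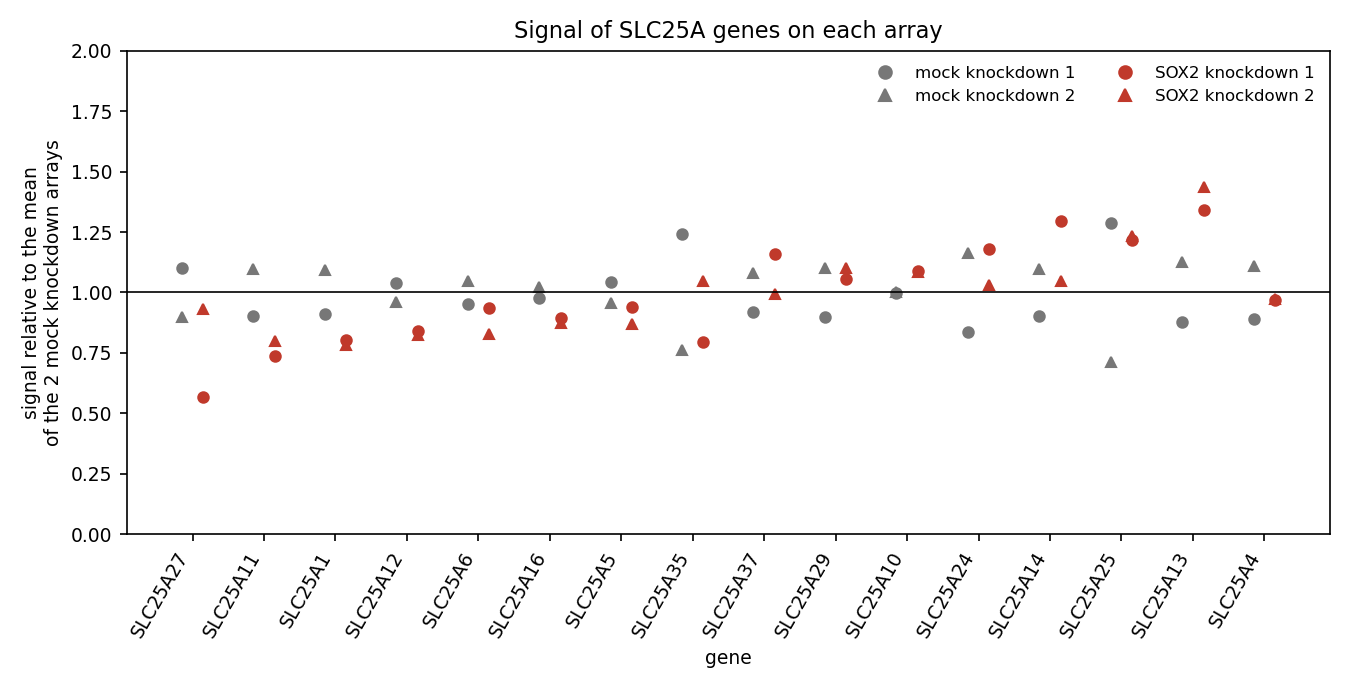
The vertical axis gives the linear signal of each array relative to the mean of the 2 mock knockdown arrays for the 15 SLC25A genes with the largest absolute log2 change, ordered by change, and for *SLC25A4*. Grey symbols are mock knockdown and red symbols *SOX2* knockdown. *SLC25A25* shows the mock arrays on either side of the knockdown arrays, and *SLC25A11* and *SLC25A13* show groups that do not overlap.

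Carriers of acylcarnitine, of ornithine and basic amino acids, of iron and of pyrimidine nucleotides had fitted log2 changes between -0.08 and 0.11. The carnitine/acylcarnitine carrier *SLC25A20*, needed for fatty acid oxidation, had a log2 change of 0.03 (SE 0.13). Of the ornithine and basic amino acid carriers, *SLC25A15* had a change of -0.08 (SE 0.13). *SLC25A29* was at 0.416 and 0.510 in mock knockdown and at 0.488 and 0.509 after knockdown, between the mock values, with a change of 0.11 (SE 0.16), and *SLC25A2* was not well above background on any array. Of the mitoferrins, the iron carriers, *SLC25A37* was at 0.705 and 0.829 in mock knockdown and at 0.889 and 0.761 after knockdown, with overlapping groups and a change of 0.11 (SE 0.16), and *SLC25A28* had a change of 0.02 (SE 0.13). The pyrimidine nucleotide carrier *SLC25A36* had a change of -0.01 (SE 0.15).

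Among the cofactor carriers, *SLC25A16*, linked to coenzyme A, was at 0.486 and 0.509 in mock knockdown and at 0.444 and 0.434 in *SOX2* knockdown. Its groups did not overlap, and both of its spots were lower after knockdown, at ratios of 0.851 and 0.913. The fitted change was -0.18 (SE 0.12, limma adjusted p = 0.553). The groups overlapped for the peroxisomal carrier *SLC25A17* (0.02), the S-adenosylmethionine carrier *SLC25A26* (-0.05) and *SLC25A32* (-0.08), which is linked to folate and flavin, the log2 change standing in parentheses. *SLC25A35*, for which no substrate is named here, was at 1.10 and 0.676 in mock knockdown and at 0.708 and 0.931 after knockdown, with a change of -0.09 (SE 0.30), and the spread between its mock arrays exceeded the difference between the groups. *SLC25A34* had S/N over 3 on 1 array and was not compared.

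Spots of the same gene did not always have ratios on the same side of 1. More than 1 spot was present for 12 genes, and 8 of them had at least 2 spots with S/N over 3 on all 4 arrays. In 5 of these 8, *SLC25A6*, *SLC25A10*, *SLC25A23*, *SLC25A26* and *SLC25A37*, such spots had ratios on either side of 1. For *SLC25A6* the spot shared with *GOLGA8A* had a ratio of 0.858 and the spot of its own 1.16, each with groups apart.

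The widest disagreement among spots with S/N over 3 throughout was in *SLC25A23*. One spot was at 13.0 and 13.4 in mock knockdown and at 11.9 and 15.5 in *SOX2* knockdown, with a ratio of 1.04. Another was at 0.106 and 0.102 in mock knockdown and at 0.0609 and 0.0705 after knockdown, with groups apart, a ratio of 0.633 and a log2 change of -0.66 (SE 0.14, limma adjusted p = 0.15). A further spot had a ratio of 0.806. As a mean of linear signals, the value of the gene is mostly that of its brightest spot, and which transcript each spot reads was not tested.

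In *SLC25A27* the brighter spot was at 0.190 and 0.170 in mock knockdown and at 0.0876 and 0.119 in *SOX2* knockdown. Its groups did not overlap, with a ratio of 0.574 and a log2 change of -0.81 (SE 0.20, limma adjusted p = 0.174). The dimmer spot had S/N over 3 on 3 arrays and a ratio of 2.07, with signals of 0.0347 and 0.0131 in mock knockdown and 0.0282 and 0.0705 after knockdown, which overlap.

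**Figure D4:**
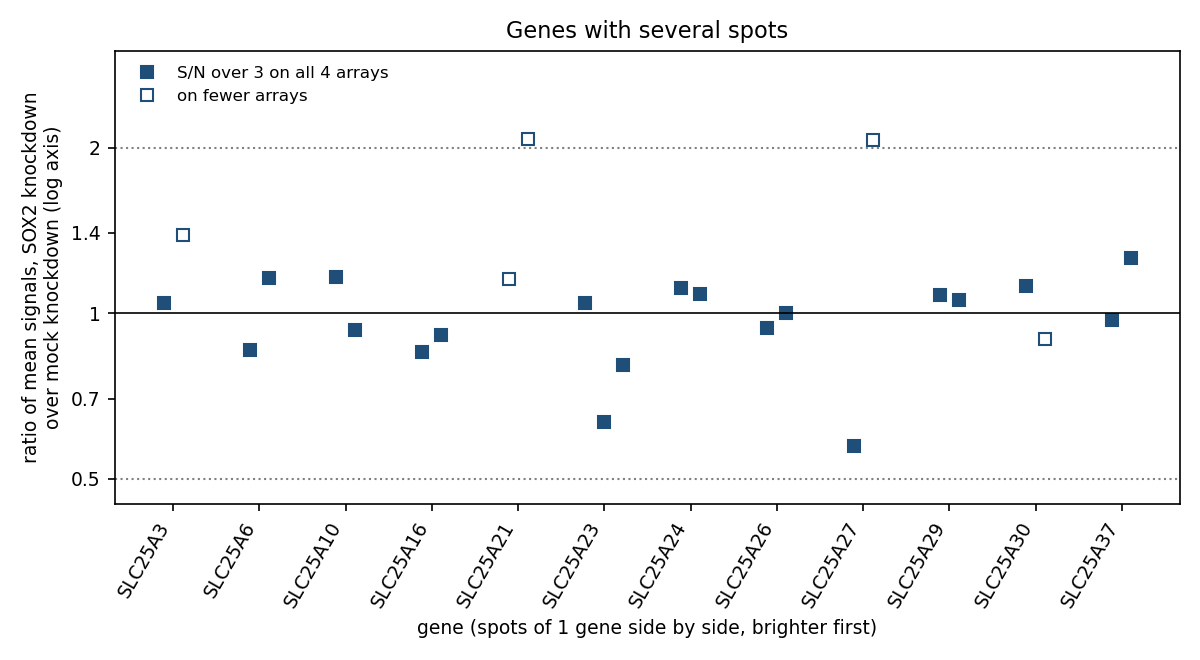
The vertical axis (log scale) gives the ratio of mean signals, *SOX2* knockdown over mock knockdown, of each spot of the 12 SLC25A genes with several spots, grouped by gene on the horizontal axis, brighter spot first. Filled squares had S/N over 3 on all 4 arrays, and none of them reached 2-fold, the lowest being *SLC25A27* at 0.574.

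Neighbouring gene lists were read in the same fit for comparison. In the carrier import machinery, which inserts SLC25 proteins into the inner membrane, 15 of 16 genes were on the arrays and all 15 were kept, 0 over 1.5-fold, with groups apart for 5 higher and 6 lower (background 21.6% and 25.7%) and a median log2 change of -0.04. These counts include features that carry a further symbol, *TIMM13* (with *SIRT6*) among the higher and *TOMM5* (with *SHB*) and *TOMM7* (with *LOC201725*) among the lower. *TIMM22*, the channel of the TIM22 complex, had a ratio of 1.38 with both knockdown arrays higher. *AGK*, another subunit of the complex, had a ratio of 0.760 with both lower. limma called none of the 15 at an adjusted p under 0.05, with an unadjusted p under 0.05 for 2 of them (background 17.2%).

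Among other transporters and channels of the mitochondrial membranes, all 16 were kept with a median of -0.15, and the groups were apart for 1 higher, *SFXN5*, and 7 lower (background 21.6% and 25.7%), with 0 of the 16 over 1.5-fold (background 9.86%). The lowest of the 7 was *ABCB10*, with a ratio of 0.759. In the list of 10 family members filed under other symbols, 9 were found by symbol and 8 were kept, as 7 features since *MCART1* and *MCART2* share 1. *SLC25A48* was found only under an older name and is counted with the further members below. The groups were apart for 2 genes higher, *MCART1* and *MCART2* with their shared ratio of 1.18, and 1 lower (background 21.6% and 25.7%). The lower one, the uncoupling protein *UCP3*, was at 0.132 and 0.106 in mock knockdown and at 0.0883 and 0.0809 after knockdown (ratio 0.709, limma adjusted p = 0.258).

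In the list of 23 enzymes that meet the carriers in shuttles, 20 were kept and 3 were over 1.5-fold, all higher after knockdown, against a background of 5.08% in that direction. They were *GOT1*, given above, *SHMT2*, the mitochondrial serine hydroxymethyltransferase, with a ratio of 1.81 (limma adjusted p = 0.121), and *MTHFD2*, an enzyme of mitochondrial folate metabolism, with a ratio of 1.71 (limma adjusted p = 0.117). The folate-linked carrier *SLC25A32* was at 0.933 and 1.20 in mock knockdown and at 1.12 and 0.889 after knockdown, with overlapping groups. The median of the list was -0.12, with groups apart for 6 higher and 7 lower (background 21.6% and 25.7%). The mixed features of *GOT2* and of *CPT1B*, shared with *CHKB*, were counted among the lower.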

How the data were processed

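Total RNA of LN229 cells was measured on 4 arrays, with 2 for mock knockdown and 2 for *SOX2* knockdown, grouped by the source names in the labels. The deposited scanner files give a linear intensity per spot, normalized within each array by the scanner software, and per the file headers a signal-to-noise score (S/N) and flags. Software versions are not given in the sources used here. A further table holds a ratio per probe that the authors made in GeneSpring, scaled per array and divided by the median of the probe.

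From these files, control spots were left out, as was any spot flagged at or above 5000 on 1 or more arrays. Spots were averaged by Celera gene ID, whereas the methods of the study averaged raw intensities. Signals were expressed relative to the array's 75th percentile over features, floored at 0.01 and put on the log2 scale. Features whose S/N was above 3 on each array of 1 group or the other were compared with limma 3.58.1 in R 4.3.3 (lmFit and eBayes, two-sided, Benjamini-Hochberg over all 18378), and by ratios of linear means with the 2-fold limit of the methods. limma was run on simulated data with the same variance for every feature and planted changes larger than any fitted for a carrier. Its power for changes as small as those of the carriers was not tested. Precision is limited by the number of arrays, 2 in each group.

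Where a symbol had several gene IDs, the brightest was used. Values on every array are given for the 15 kept members with the largest absolute change, the ADP/ATP carriers, members over 1.5-fold or measured in 1 group only (none met these) and members whose spots have ratios on either side of 1 with 1 of them past 1.5-fold. The members, the lists and the tests were chosen with earlier results of these data known. Alternatives covered scaling, background correction, floor, filters, single spots, the variance model, a block for the replicate number, and fits without each array in turn. Array symbols are old and were updated through the RefSeq gene table of GRCh38.p14, which was also the source of the promoters. The values of 1 member are counted in the totals and not reported here.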

Additional observations from a re-analysis of the deposited data

How the results depend on the processing

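limma called 0 carriers at an adjusted p under 0.05 in every setting tried, and 0 at 0.1. Same-numbered arrays did not deviate together (r = -0.499 across 18378 features), so the replicate numbers were not taken as pairs. With the replicate block limma called 0 carriers, and with the crossed pairing, added after seeing the data, also 0. Over all features limma called 669 with median scaling, 650 without further scaling, 639 with the authors' ratios, 240 with a variance trend and 3 where the S/N filter had to be met on all 4 arrays, against 0 here, and the cause was not tested. No carrier was over 2-fold in these settings except *SLC25A21*, not well above background, which made 1 without the S/N filter. With single spots the brightest spot stood for each gene, and the dimmer spot of *SLC25A27*, which passed the filter at a ratio of 2.07, was not counted. The 1.5-fold limit was applied to the values of the report alone, where 0 passed, and fitted changes larger than that arose for *SLC25A13* (0.67 with normexp, 0.66 without mock 2), *SLC25A25* (0.78 without mock 1) and *SLC25A27* (-0.81 with single spots, -0.60 without mock 2, -0.81 without *SOX2* knockdown 2). The count of carriers with groups apart was 8, between 6 and 11 in other settings and between 14 and 22 when an array was left out, since a lone array overlaps less often. The median change stayed between -0.05 and 0.04.

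Of 28 carriers, 10 kept the sign of their change in all 19 settings, among them *SLC25A1*, *SLC25A5*, *SLC25A6*, *SLC25A11*, *SLC25A12*, *SLC25A13*, *SLC25A16* and *SLC25A27*, and 18 did not. In 47 of 532 values the sign was opposite, none of them called. Both counts include the settings that changed only the floor, the S/N filter, the variance model or the block. In those settings the fitted change of each carrier was the same as in the report, so they add nothing on the sign. The single-spot setting took only the brightest spot of each gene, so dimmer spots that disagreed did not enter these counts. Among the 10, the spot that carries the *SLC25A6* symbol only had a log2 change of 0.21. The dimmer spot of *SLC25A27* had one of 1.07, while both spots of *SLC25A16* were lower. With median scaling *SLC25A17* was at -0.016, *SLC25A20* at -0.0065, *SLC25A28* at -0.0080 and *SLC25A30* at -0.0053. Without further scaling they were at -0.013, -0.0034, -0.0049 and -0.0022. With the assay-normalized signal *SLC25A20* was at -0.0041, *SLC25A28* at -0.0050 and *SLC25A30* at -0.0027. With the authors' ratios *SLC25A17* was at -0.0091, *SLC25A23* at -0.022 and *SLC25A28* at -0.0013. With quantile normalization *SLC25A36* was at 0.017 and with single spots *SLC25A37* at -0.037. With normexp *SLC25A10* was at -0.051, *SLC25A26* at 0.052, *SLC25A28* at -0.035, *SLC25A29* at -0.079, *SLC25A32* at 0.037 and *SLC25A36* at 0.18.

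Leaving out each array in turn gave log2 changes on both sides of 0 for *SLC25A3* (-0.084 to 0.22), *SLC25A4* (-0.20 to 0.13), *SLC25A17* (-0.055 to 0.088), *SLC25A20* (-0.038 to 0.09), *SLC25A22* (-0.057 to 0.20), *SLC25A23* (-0.15 to 0.23), *SLC25A24* (-0.077 to 0.40), *SLC25A25* (-0.069 to 0.78), *SLC25A26* (-0.30 to 0.20), *SLC25A28* (-0.064 to 0.11), *SLC25A29* (-0.032 to 0.26), *SLC25A30* (-0.0015 to 0.056), *SLC25A32* (-0.27 to 0.098), *SLC25A35* (-0.44 to 0.26), *SLC25A36* (-0.13 to 0.11) and *SLC25A37* (-0.012 to 0.22). For *SLC25A13* the range was 0.31 to 0.66. In these fits the lone array was assumed to vary like the other group. Signal over background sets the limit for the 5 dim carriers, and the number of arrays for the rest.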

Other observations

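Besides the list of family members under other symbols given above, further members are on the arrays under older names and were found by RefSeq accession or synonym after the values had been seen. They make 11 features, of which 10 passed the S/N filter, with a median log2 change of 0.13. The groups were apart for 4 higher and 3 lower, against a background of 21.6% and 25.7%. limma called none of them at an adjusted p under 0.1, against a background of 0.903%, and 1 had an unadjusted p under 0.05 (background 17.2%).

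*SLC25A43*, filed as LOC203427, was the only one over 1.5-fold (background 9.86%). It was at 0.263 and 0.289 in mock knockdown and at 0.201 and 0.131 in *SOX2* knockdown, without overlap, with a ratio of 0.602 and a log2 change of -0.77 (limma adjusted p = 0.239). The glutathione-linked carriers *SLC25A39* (ratio 0.901) and *SLC25A40* (ratio 0.820) were lower on both knockdown arrays. The glycine carrier *SLC25A38* (ratio 1.14), the branched-chain amino acid carrier *SLC25A44* (ratio 1.19) and the outer membrane protein *SLC25A46* (ratio 1.18) were higher on both.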
